A study of Homo sapiens with 6 samples.

Results

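Chromosome 20 held 92, 145 and 115 peaks in the lists of the 3 libraries from the V5 immunoprecipitation, out of 1599, 2557 and 1887 peaks in all. These 352 peaks were taken by chromosome name, from ChIP-seq peak lists on GRCh38. Chromosome 20 was selected on the number, rank and sharing of its peaks in these same lists. Its peaks are set beside the 5481 peaks of the other 21 numbered chromosomes. The cells were 1 clone of HepG2, an established human liver cancer line, that carries TAF2 with a V5 peptide tag. All 6 libraries of the series, 3 with the V5 antibody and 3 controls, came from this clone. The labels call the controls input in one field and IgG in another, and no control peak list was analysed here. The labels do not say how the tag was introduced or whether each library had its own culture, so the spread between libraries may be technical. Peak lists measure no expression, so the identity of the cells could not be checked from markers, and they give no read totals, so depth is unknown. Its values are therefore given as a description, with no test.

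TFIID, the complex to which TAF2 belongs, recognises core promoters and begins the assembly of the RNA polymerase II machinery there. Chromosome 20 carries the gene of TAF4, another TFIID subunit, the gene of the hepatocyte nuclear receptor HNF4A, and a long arm that is often gained in carcinomas. HepG2 cells are hyperdiploid and are known to carry additional copies of several chromosomes, chromosome 20 among them. The peak lists hold no measure of copy number, and no value here is per copy.

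Merging peaks that overlapped by at least 1 bp gave 199 regions on chromosome 20, of which 45 had peaks of 3 libraries, 48 of 2 and 106 of 1. A region is called shared when 2 or 3 libraries contributed to it. In 12 of the 93 shared regions (12.9%) the region touched a promoter window of the RefSeq table, which runs from 250 bases before to 50 after a start. The same held for 17 of 106 regions of a single library (16.04%). The windows below, from RefSeq on GRCh38.p14, show the letters at the starts that met regions of 3 libraries (MGME1 standing also for SNX5) and at CST3, the highest-ranked start region of 2 libraries, with ID1 added after its values were seen. Each is written in the direction of transcription, and the base at the start site is number 251. Capitals mark matches on either strand to 5 motifs: the TATA box (TATAAA), the CCAAT box (those 5 letters), the GC box of SP1 (GGGCGG), the core of ETS factors (CCGGAAG) and the sterol regulatory element (TCACNCCAC).
ZFAS1, chr20:49278392-49278691, plus strand: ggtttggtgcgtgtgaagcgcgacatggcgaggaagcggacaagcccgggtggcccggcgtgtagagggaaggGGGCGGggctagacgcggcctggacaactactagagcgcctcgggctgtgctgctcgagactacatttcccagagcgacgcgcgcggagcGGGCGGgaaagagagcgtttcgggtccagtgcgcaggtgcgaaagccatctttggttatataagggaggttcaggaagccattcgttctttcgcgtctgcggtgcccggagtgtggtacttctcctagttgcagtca
LINC01270, chr20:50292470-50292769, plus strand: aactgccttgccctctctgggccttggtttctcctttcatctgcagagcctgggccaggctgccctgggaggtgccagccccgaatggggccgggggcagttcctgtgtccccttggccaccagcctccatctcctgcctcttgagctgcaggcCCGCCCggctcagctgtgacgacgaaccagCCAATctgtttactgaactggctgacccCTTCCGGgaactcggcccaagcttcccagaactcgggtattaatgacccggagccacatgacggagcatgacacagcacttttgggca
LOC107985416, chr20:31572760-31573059, plus strand: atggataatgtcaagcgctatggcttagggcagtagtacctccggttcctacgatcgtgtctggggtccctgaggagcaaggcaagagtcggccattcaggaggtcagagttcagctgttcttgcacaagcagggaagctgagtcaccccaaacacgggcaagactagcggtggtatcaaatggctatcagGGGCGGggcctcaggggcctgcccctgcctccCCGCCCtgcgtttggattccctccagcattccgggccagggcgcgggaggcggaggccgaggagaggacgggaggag
MGME1, chr20:17968768-17969067, plus strand: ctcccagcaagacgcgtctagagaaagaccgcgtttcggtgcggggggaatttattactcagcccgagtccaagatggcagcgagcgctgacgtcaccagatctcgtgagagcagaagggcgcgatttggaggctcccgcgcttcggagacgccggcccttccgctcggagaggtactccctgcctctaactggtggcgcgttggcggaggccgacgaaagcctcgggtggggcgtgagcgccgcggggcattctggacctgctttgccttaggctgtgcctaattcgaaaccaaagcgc
CST3, chr20:23637906-23638205, minus strand: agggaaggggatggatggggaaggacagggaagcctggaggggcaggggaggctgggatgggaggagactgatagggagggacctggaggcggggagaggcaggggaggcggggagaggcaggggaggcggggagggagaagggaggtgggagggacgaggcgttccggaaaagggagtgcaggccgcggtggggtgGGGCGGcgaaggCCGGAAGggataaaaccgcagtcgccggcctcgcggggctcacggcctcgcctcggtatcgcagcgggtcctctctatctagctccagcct
ID1, chr20:31605039-31605338, plus strand: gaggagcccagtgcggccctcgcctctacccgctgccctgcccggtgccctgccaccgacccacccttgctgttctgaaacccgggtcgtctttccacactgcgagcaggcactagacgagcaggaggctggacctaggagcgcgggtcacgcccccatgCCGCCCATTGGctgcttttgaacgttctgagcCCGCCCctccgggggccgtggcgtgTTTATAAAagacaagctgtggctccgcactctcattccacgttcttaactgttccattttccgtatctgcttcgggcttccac
The window of SNX5, on the opposite strand, shares 277 bases with that of MGME1, and the starts of both genes lie 224 bp apart.

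None of these 5 motifs occurred in the MGME1 window, which lay wholly inside a region of 3 libraries. ZFAS1 had 2 GC boxes and no TATAAA, whereas ID1 had TATAAA (found on both strands of the same stretch), a CCAAT box and 2 GC boxes. In ID1 the CCAAT box and 1 of the GC boxes adjoin and run together in capitals. Across the 17 promoter windows that met shared regions, 11 held GGGCGG, against 44.9% of 34943 RefSeq windows of the same length in the genome. TATAAA was in 5 of 17 (11.6% of all windows), CCAAT in 6 (34.6%), CCGGAAG in 6 (10.2%) and TCACNCCAC in 0 (1.12%). Several of the 17 overlap one another, as at SNX5 and MGME1, so they are not independent sequences. All 5 windows with TATAAA came from 2 places. These were the overlapping windows of ID1 and LOC105372588, and those of DPM1 and MOCS3. Only exact letters were matched, so variants such as tatataag in the ZFAS1 window were not counted, and no window is shown to lack a TATA box. The core of ETS factors was also counted repeatedly at DPM1 and MOCS3. Other motifs were counted repeatedly at ID1 and at NOP56 with LOC105372505. The counts are of windows and not of places, so nothing is read from their distance to the genome shares. The median window among them had 23 CpG dinucleotides and 62.7% G and C, beside 13 and 59% over the 914 windows of the chromosome. A match describes letters in the window only.

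Chromosome 20 held 5.99, 5.85 and 6.32% of the peaks on numbered chromosomes in replicates 1, 2 and 3, and the mean was 6.05 ± 0.24% with n = 3 (SD). The exact binomial 95% intervals ran from 4.86 to 7.30%, from 4.96 to 6.85% and from 5.24 to 7.54%, and cover counting error only. The 3 libraries gave nearly the same share although replicate 2 listed many more peaks. Per Mb of annotated span, the density was 1.49, 2.34 and 1.86 peaks in replicates 1, 2 and 3. The medians of the other chromosomes were 0.556, 0.878 and 0.652, so chromosome 20 lay at 2.73 ± 0.10 times the median (SD, n = 3). Its mean of 1.90 ± 0.43 stood next to the 1.83 ± 0.41 of chromosome 17, a difference smaller than the spread between libraries, and in replicate 3 chromosome 17 was the higher (1.87 against 1.86). With only peaks of fold 5 or more, or without dense clusters, chromosome 17 was first and chromosome 20 next. Chromosome 16 followed at 1.21 ± 0.28.

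In protein-coding genes per Mb chromosome 20 ranked 7 of 22. Counted per 100 protein-coding genes, it held 17.1, 27.0 and 21.4 peaks, the highest of the 22 chromosomes in each library. The next mean, of chromosome 2, was 16.8 ± 4.72 against 21.8 ± 4.95 (SD, n = 3). Libraries overlapped between the 2 chromosomes in this count, but within each library chromosome 20 was above.

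**Figure D1:**
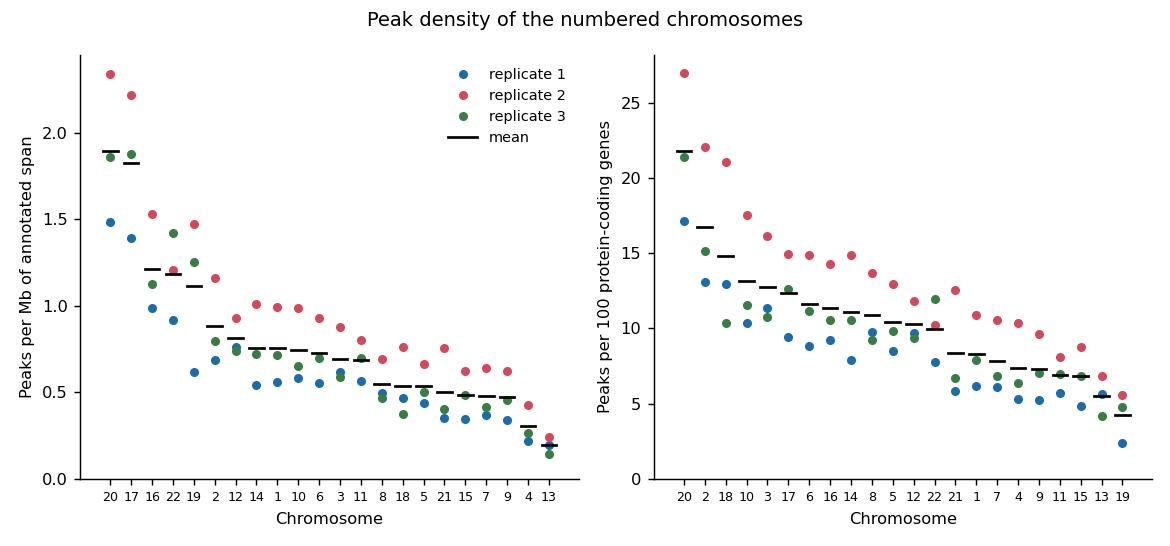
Peaks per Mb of annotated span (left) and per 100 protein-coding genes (right) for each numbered chromosome, ordered by mean; points are the 3 V5 libraries and bars their means. Chromosome 20 stands first in both panels, beside chromosome 17 on the left (1.90 and 1.83) and above chromosome 2 on the right (21.8 and 16.8).

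By position, 33, 49 and 36 peaks lay on the short arm and 59, 96 and 79 on the long arm in replicates 1, 2 and 3. The arms were divided at the longest stretch without a protein-coding gene (25696854 to 30813426), which held no peak in any library. Density was 1.54 ± 0.33 peaks per Mb on the short arm and 2.33 ± 0.55 on the long arm, and in each library the long arm was denser. Per 100 protein-coding genes the arms were alike, at 21.9 ± 4.72 and 21.8 ± 5.19. Shared regions made up 31 of 64 regions on the short arm (48.4%) and 62 of 135 on the long arm (45.9%).

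The peaks were gathered in a few places. The 5 Mb segments from 30 to 35 Mb and from 50 to 55 Mb each held a mean of 22.3 peaks (SD 4.51 and 8.02, n = 3), and the segment from 45 to 50 Mb held 19.0 ± 3.61. On the short arm the segment from 15 to 20 Mb held 16 ± 1, most of them at SNX5 and MGME1. By contrast, from 55 to 60 Mb a single peak was listed, in replicate 2, although 39 protein-coding genes lie there. The gene-rich end of the long arm, from 60 to 65 Mb with 65 genes, had 5.67 ± 2.52 peaks. The longest stretches without any peak, beside the one around the centromere, ran from 38962320 to 44394468 and from 54195162 to 58623899. They hold 22 and 25 protein-coding genes. TAF4, near 62 Mb, had 0 peaks, counting its whole span and 1000 bp on either side.

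**Figure D2:**
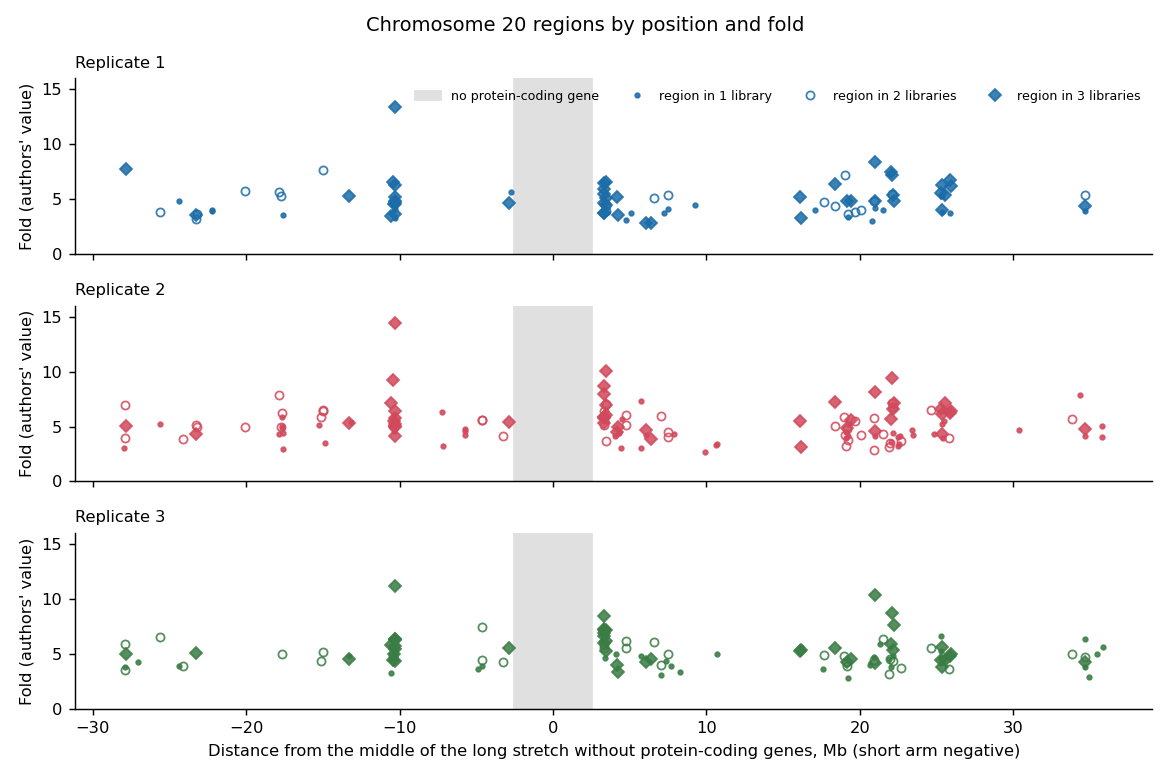
Fold over background of each chromosome 20 region, as the authors' value, against its distance in Mb from the middle of the long stretch without protein-coding genes (grey), for the 3 V5 libraries; marker shape gives the number of libraries that share the region. Diamonds pile up at the same few positions in each panel, with the highest fold (13.4, 14.5 and 11.2) on the short arm.

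Regions were shared between libraries in 46.7% of cases on chromosome 20 (93 of 199, exact binomial 95% interval 39.6 to 53.9%). Over all numbered chromosomes 36.3% of regions were shared, and over the other 21 the share was 35.7% (34.1 to 37.3%). Regions of 3 libraries made up 22.6% (17.0 to 29.1%) against 16.1% (14.9 to 17.4%). These intervals treat regions as independent, although many lie close together. Sharing was among the values that chose the chromosome, so nothing is read from its higher share. Of the other chromosomes, chromosome 15 had a shared part as high, 47.3%, from fewer regions. Seen from single lists, 71.7% of the chromosome 20 peaks of replicate 1 met one in replicate 2, against 59.0% elsewhere. For the peaks of replicate 3 in replicate 2 the figures were 67.8 and 54.0%, and for those of replicate 2 in replicate 3 they were 53.8 and 39.6%. The differences were smaller where replicate 1 was paired with replicate 3, at 56.5 and 50.3% of the peaks of replicate 1 and 46.1 and 42.9% of those of replicate 3. Of the peaks of replicate 2, 45.5% met one in replicate 1, against 36.5% elsewhere. Without replicate 2, the library with the longest list, the shared regions of chromosome 20 numbered 49.

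Where a region had 1 peak in each of 3 libraries, the summits lay a median of 53.5 bp apart at the widest (0 to 483 bp, 38 regions). The fold in the highest library was a median of 1.32 times that in the lowest (1.06 to 2.09, 45 regions), beside 1.37 on the other chromosomes. Shared regions also sat close together. Of the 93, 48 (51.6%) had another shared region within 10 kb, against 34.5% on the other chromosomes, and the median distance to the nearest one was 9.77 kb against 60.7 kb.

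The fold of a peak over background and its significance ranked chromosome 20 in opposite ways. Ranked by fold within its own list, the median chromosome 20 peak stood at percentile 39.1, 43.0 and 42.1 in replicates 1, 2 and 3, below the 51.6, 50.9 and 51.2 of the other numbered chromosomes. Ranked by −log10 q, it stood at 61.1, 55.9 and 65.5, above the 48.0, 49.0 and 47.7 of the others. In each library, therefore, the typical peak here had a low fold and a high significance. The median fold was 4.70, 5.004 and 4.86 against 5.06, 5.25 and 5.08 elsewhere. The median −log10 q was 5.72, 5.47 and 6.25 against 4.57, 4.77 and 4.63. Among the strongest 10% of each list by fold were 7, 9 and 7 chromosome 20 peaks. That was 7.61, 6.21 and 6.09% of its peaks in replicates 1, 2 and 3, below the 10% that the cut takes of each whole list.

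At the same fold, the peaks of chromosome 20 carried smaller p-values. Among peaks with a fold from 5 to 6, the median −log10 p was 13.2, 11.2 and 13.9 on chromosome 20 in replicates 1, 2 and 3 (20, 40 and 28 peaks), against 9.48, 9.11 and 9.69 on the others. From 4 to 5, it was 9.45, 8.57 and 9.96 against 7.49, 6.93 and 7.46. The direction was the same from 3 to 4 and from 6 to 8. Median widths at a fold from 5 to 6 were 280.5, 292 and 250.5 bp against 221, 224 and 223 bp. Peaks outside dense clusters (5 or more peaks of a library within 100 kb) gave 12.02, 11.3 and 14.6 against 9.74, 9.17 and 9.70 at that fold.

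For each of the 22 chromosomes, the median −log10 p at a fold from 4 to 6 was taken in each library and averaged over the libraries. This mean of medians was highest on chromosome 20, at 10.4 ± 0.75 (SD, n = 3). It was followed by chromosome 17 at 9.24 ± 0.41, chromosome 14 at 9.07 ± 0.37 and chromosome 16 at 8.97 ± 0.55. The rank by −log10 q exceeded the rank by fold on 6 of 22 chromosomes. Chromosomes 20 and 16 stood apart by 19.4 and 18.8 percentile points, chromosome 14 by 11.7, chromosome 17 by 7.17, chromosome 6 by 4.85 and chromosome 2 by 3.63. Chromosome 20 thus shared this pattern with a few others, and its rank by −log10 q (60.8 ± 4.81) was not separated from that of chromosome 14 (55.3 ± 7.31) beyond their spread. These ranks are percentiles of each library's own list.

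**Figure D3:**
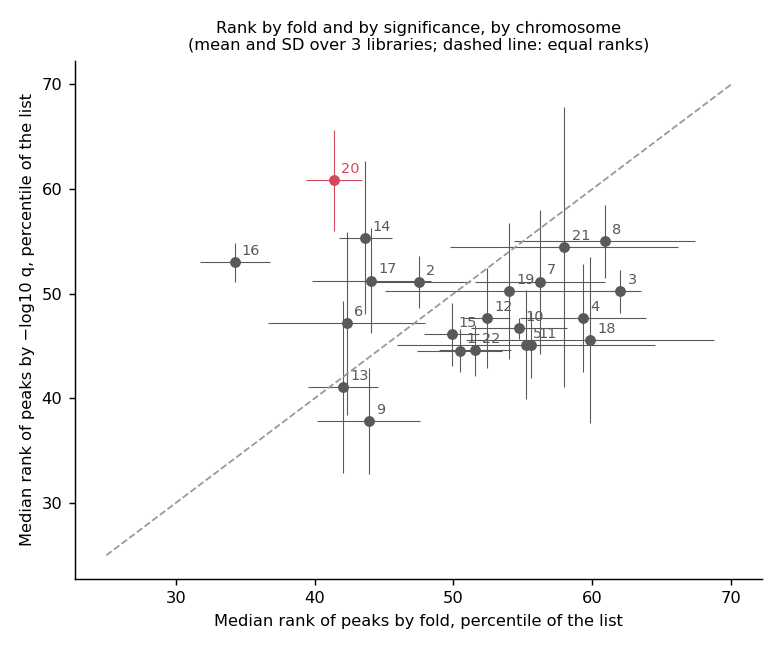
Median rank of the peaks of each numbered chromosome by −log10 q (vertical) against that by fold (horizontal), both as percentiles of the list, with mean and SD over the 3 V5 libraries; the dashed line marks equal ranks. Chromosome 20 (red) lies farthest above the line, at 41.4 by fold and 60.8 by −log10 q, and chromosome 16 lies nearly as far above it.

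The strongest region of the chromosome lay inside SNX5, which encodes a sorting nexin of endosome-to-Golgi transport, and beside MGME1, which encodes a nuclease that maintains mitochondrial DNA (chr20:17960549-17968411, 7863 bp wide). Its folds were 13.4, 14.5 and 11.2 in replicates 1, 2 and 3, a mean rank percentile of 99.3 ± 0.17 (SD, n = 3). All libraries placed the summit inside SNX5, a median of 1876 bp after the start of the gene, within 543 bp of one another. The small nucleolar RNA gene SNORD17 lies within 1000 bp of the same region. Within 12 kb of the start of MGME1, whose promoter sequence is printed above, 14, 9 and 11 peaks covered 11.8, 11.8 and 11.7 kb. The number of peaks differed and the covered length did not, since replicate 2 had 1 peak of 7675 bp where the others had several. The promoter that both genes share lay in a weaker region between, with folds of 3.64, 4.96 and 5.75 (chr20:17968659-17969315).

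The next region began at the start of ZFAS1, a noncoding RNA gene that hosts the small nucleolar RNAs SNORD12, SNORD12B and SNORD12C (chr20:49278532-49284814, 6283 bp). Its folds were 8.37, 8.10 and 10.4, with replicate 3 the highest, and its mean rank percentile was 95.3 ± 3.19. The peaks ran in the direction of ZFAS1 transcription and did not enter ZNFX1, the helicase gene on the other side. That gene is counted below as having an end peak only because its end lies within 1000 bp. These 2 regions were the only ones on the chromosome wider than 2000 bp, 1.01% of 199, beside 0.80% on the other chromosomes.

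**Figure D4:**
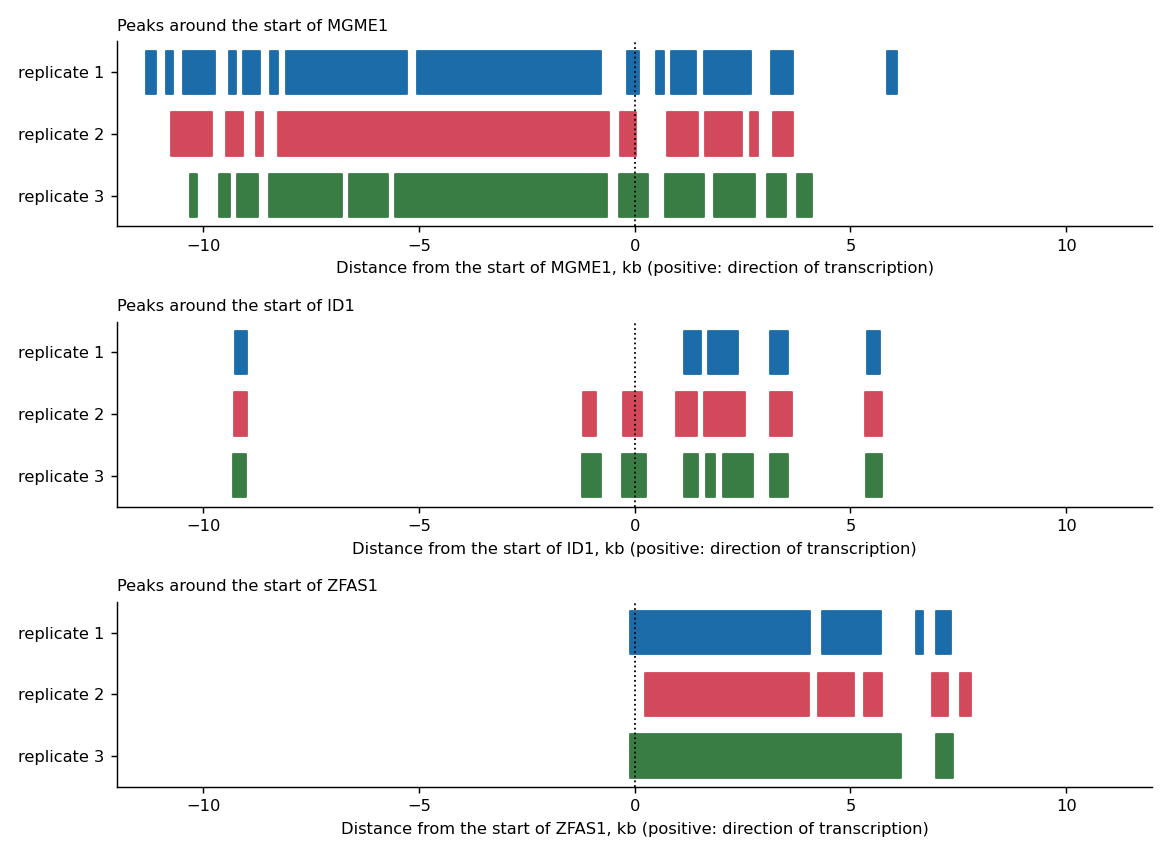
Extent of each peak around the starts of MGME1, ID1 and ZFAS1, in kb along the direction of transcription, with 1 row for each V5 library. At MGME1 the widest peaks (4286, 7675 and 4915 bp) lie before its start, over SNX5; at ID1 replicate 1 has no peak at the start; at ZFAS1 the peaks run downstream from the start.

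Other regions of high rank lay near ID1 and inside BCL2L1, ZNF217 and SLC13A3. Downstream of ID1, an inhibitor of DNA-binding helix-loop-helix factors and a target of BMP signalling, regions at 3454 and 5526 bp after the start had folds of 6.50, 7.95 and 7.24, and of 5.92, 8.69 and 8.44. Around the ID1 start itself the region was present in replicates 2 and 3 only (folds 5.11 and 5.78). Inside BCL2L1, which encodes the survival protein BCL-XL, 3 regions of 3 libraries lay 15971 to 26546 bp after the nearer of its listed starts. The middle one had folds of 5.14, 10.1 and 6.14, so replicate 2 stood well above the others. Inside ZNF217, a zinc finger transcription factor gene amplified in some carcinomas, the strongest region lay 2397 bp after the start in the RefSeq promoter table, which is inside the annotated gene, with folds of 6.33, 6.11 and 5.61. A region inside SLC13A3, a dicarboxylate transporter gene, had folds of 6.40, 7.21 and 5.50.

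Of the 15 highest-ranked regions of 3 libraries, 7 had no annotated gene within 1000 bp. The strongest of these (chr20:50390238-50390640, folds 7.23, 9.45 and 8.71) lay between CEBPB and PTPN1, and its summits fell within 31 bp of one another. It lay 120043 bp before the start of PTPN1, which encodes a tyrosine phosphatase. Another, 49716 bp before that start, had folds of 4.82, 7.14 and 7.68. LINC01270, a noncoding RNA gene in the same interval, had a region at its start with folds of 7.49, 5.71 and 5.92, where replicate 1 was the highest. CEBPB itself, a transcription factor of the acute phase response, had an end peak in replicate 3 only (fold 4.55).

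**Figure D5:**
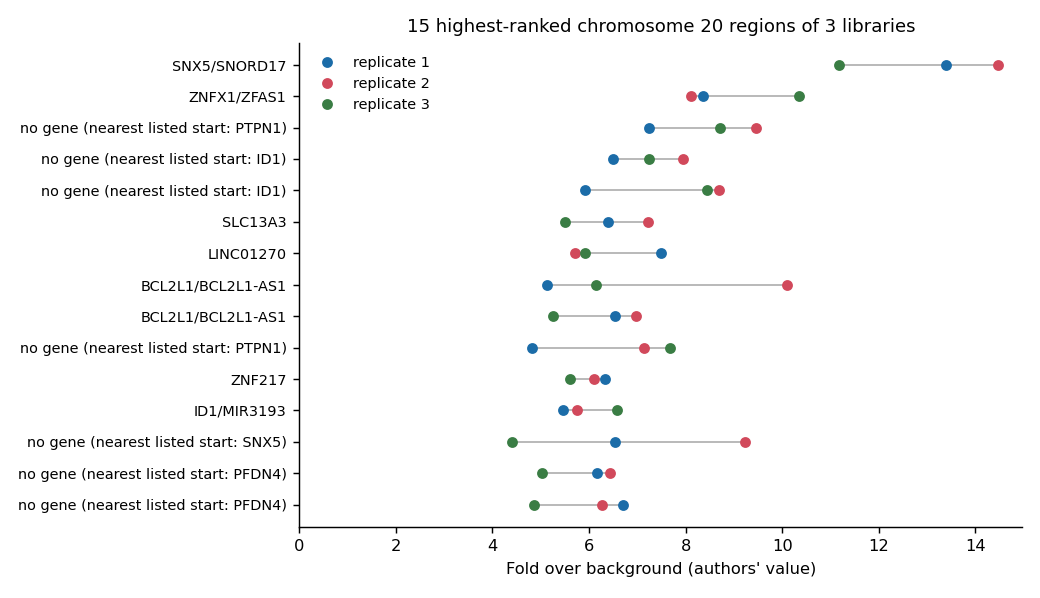
Fold over background, as the authors' value, of the 15 chromosome 20 regions of 3 libraries with the highest mean rank, by library, labelled with a gene within 1000 bp or else with the nearest listed protein-coding start. The SNX5 region lies apart at 11.2 to 14.5, while the spread between libraries covers most differences among the other regions.

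Dense clusters held 37, 59 and 37 peaks of chromosome 20 in replicates 1, 2 and 3. That was 40.2, 40.7 and 32.2% of its peaks, against 20.7, 19.2 and 20.2% on the other chromosomes. A peak counts as dense only together with others, so peaks are not independent here and no interval is given. Pooled over libraries the share was second to that of chromosome 3 (37.8 against 38.0%). The chromosome had 7 such clusters, at SLX4IP and JAG1, at SNX5 and MGME1, from ID1 to BCL2L1, at ZMYND8 and NCOA3, from STAU1 to ZNFX1, between CEBPB and PTPN1, and at ZNF217. The clusters of SNX5, ID1 to BCL2L1 and ZNF217 were dense in all 3 libraries. Those of SLX4IP and of ZMYND8 were dense in replicate 2 alone, with 6 and 8 peaks there against 1 and 3 in replicate 1 and 1 and 4 in replicate 3. In the span of the clusters, 40 of 71 regions were shared (56.3%), and outside them 53 of 128 (41.4%). Over all numbered chromosomes the share was 36.3%, which includes the clusters of the others. No interval was computed for the share outside, and nothing is read from its distance to that value.

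At an annotated end of a protein-coding gene, within 1000 bp, lay 13.0, 14.5 and 26.1% of the chromosome 20 peaks in replicates 1, 2 and 3. The other chromosomes gave 16.7, 16.7 and 24.3%, so chromosome 20 was lower in 2 libraries and higher in the third, within its own spread (17.9 ± 7.15%, SD, n = 3). By summit, 48.9 ± 7.05% of peaks fell within protein-coding genes but not near an end, 24.6 ± 3.21% between genes and 5.90 ± 1.77% at ends of other genes. The other chromosomes gave 46.9 ± 2.39, 18.9 ± 1.62 and 8.20 ± 0.83%. The intergenic share was higher on chromosome 20 in each library, at 22.8, 28.3 and 22.6% against 18.6, 20.6 and 17.4%.

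An end peak in at least 2 libraries was present at 12 of 537 protein-coding genes (2.23%), where all numbered chromosomes gave 1.36%. The lists chose the chromosome, and nothing is read from this difference. The 12 genes were SNX5, MGME1, ZNFX1, ID1, CST3, LSM14B, NOP56, RBM39, ZMYND8, AHCY, DPM1 and MOCS3. The first 4, NOP56 and AHCY had such a peak in 3 libraries. Without replicate 2 the count was 6, and without replicate 3 it was 7. RefSeq gave a strand for 9 of the 11 that are longer than 4 kb, and in all 9 the libraries met at the start and not at the 3′ end. RBM39 and ZNFX1 had no entry.

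Of the 12, SNX5, MGME1 and ZNFX1 take their folds from the wide regions described above. At AHCY, which encodes S-adenosylhomocysteine hydrolase of the methionine cycle, the folds were 2.84, 4.70 and 4.25, 298 bp after a listed start. At the start between DPM1, a subunit of dolichol-phosphate mannose synthase, and MOCS3, of molybdenum cofactor synthesis, the folds were 3.68 and 3.69 in replicates 2 and 3. CST3, the gene of the secreted protease inhibitor cystatin C, had folds of 5.62 and 7.48 in replicates 2 and 3, 72 bp before its start. NOP56, a core protein of box C/D small nucleolar particles, had peaks of 3.82 and 6.53 in replicates 1 and 3 upstream of its start. Its peak in replicate 2 (5.25) lay 989 bp after the start and did not overlap them.

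Peaks anywhere over a gene or within 1000 bp of it were present in at least 2 libraries at 38 of 537 genes (7.08%), where all numbered chromosomes gave 3.83%. In any library they were present at 82 (15.3%), where all gave 8.89%. The peaks of a gene need not overlap between libraries. Gene lists drawn up for this chromosome were read against that 7.08%, without a test, and long genes have more room for a peak. Of 24 genes of hepatocyte regulation and liver metabolism, 7 had such peaks. HNF4A, the nuclear receptor that maintains hepatocyte identity, had regions in 3 libraries 6492 bp before (folds 5.21, 5.52 and 5.29) and 10161 bp after the nearer of its listed starts (folds 3.26, 3.14 and 5.37). Both lay within the gene's full span and none at its ends. The first had its median summit within 1000 bp of an end of HNF4A-AS1, which is not a protein-coding gene. ACSS1 and ACSS2, the mitochondrial and the nucleocytosolic acetyl-CoA synthetase, had peaks 187 and 342 bp before a start in 2 libraries each. The folds were 4.16 and 4.22 at ACSS1 in replicates 2 and 3, and 5.07 and 6.10 at ACSS2 in replicates 1 and 3. The others were CST3, AHCY, SULF2 and SPTLC3, while FOXA2, PCK1 and PLTP had no peak.

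Of 20 genes of RNA processing, ribosomes and nucleoli, 6 had peaks in at least 2 libraries (RBM39, STAU1, NOP56, NOL4L, RALY and LSM14B) and 6 more in a single library. STAU1, which encodes a double-stranded RNA binding protein, had folds of 4.88, 5.75 and 4.72 at its strongest, at places that did not all overlap. A weaker STAU1 region of replicates 2 and 3 (folds 2.90 and 4.41) lay 88 bp before a listed start. The splicing factor gene RBM39 had folds of 5.36, 4.49 and 5.03, that of replicate 1 in another region than those of replicates 2 and 3. Of 31 genes of transcription and chromatin, 5 had them (ZNFX1, ZNF217, ZMYND8, DIDO1 and NCOA3). DIDO1 had highest folds of 5.38, 4.77 and 4.71, that of replicate 2 in another region than those of replicates 1 and 3. The region of that replicate 2 peak was found in all 3 libraries, with folds of 4.38, 4.77 and 4.27. The coactivator gene NCOA3 had 5.24 in replicate 2 against 3.66 and 2.82 in replicates 1 and 3, at different places in the gene. The noncoding RNA list had 2 of 11, ZFAS1 and SNORD12, from the same region.

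Of 25 long-arm genes often gained in cancer, 3 had peaks in at least 2 libraries (BCL2L1, ZNF217 and NCOA3), and AURKA, TPX2, SRC, TOP1 and MYBL2 had none in any. Of 20 signalling genes 3 had them, namely ID1, SULF2 and the Notch ligand gene JAG1. JAG1 had folds of 3.60 and 4.42 in replicates 1 and 2, at different places in the gene, and no peak in replicate 3. The list of proteasome, folding and secretion had 2 of 21, SNX5 and PIGU. Of 16 cell cycle and replication genes none had peaks in 2 libraries and 2 (CEP250 and CSE1L) had one in a single library, while PCNA had none. Among 38 genes of other tissues, which include the beta-defensin and cystatin families, BPIFB2 alone had peaks, with highest folds of 3.11, 6.05 and 6.15, that of replicate 1 before its start and the others inside it. The lists overlap, as ZNF217, NCOA3 and SULF2, for example, are each in 2 of them.

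Regions found in a single library numbered 22, 51 and 33 in replicates 1, 2 and 3. They made up 25.3, 36.4 and 30.0% of each library's chromosome 20 regions, against 32.6, 50.7 and 39.0% of its regions elsewhere. They were weak, with a median rank percentile by fold of 16.2, 20.2 and 33.0 against 39.8, 39.1 and 37.4 on the other chromosomes. In replicate 3, 15 of 33 had their summit at a protein-coding gene end, against 4 of 22 in replicate 1 and 8 of 51 in replicate 2. Among all peaks of the other chromosomes, 14.8, 15.1 and 22.8% did in replicates 1, 2 and 3, so replicate 3 was the highest there too. That share was not computed for single-library regions of the other chromosomes. The strongest single-library regions of replicate 1 lay inside NINL (fold 5.67), ZNF217 (5.30) and PANK2 (4.82). Those of replicate 2 lay at the noncoding gene LOC124904949 (7.87), inside RALY (7.32) and between genes near 21 Mb (6.34). Those of replicate 3 lay at ZNF217-AS1 (6.65), between genes near 63 Mb (6.32) and inside LOC105372651 (5.92).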

How the data were processed

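ChIP-seq peak lists of 3 V5 libraries were analysed. Samples were grouped by title, and the 3 controls entered no comparison. The build was GRCh38, per the submitters' processing notes. Which aligner, peak caller, threshold and control were used is not given in the sources used here. In the deposited lists the fold is a linear ratio over the caller's background, and −log10 p and −log10 q are the authors' values per peak. The deposited score, 10 times −log10 q without decimals, was left unused. Ranks are percentiles within a list.

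Annotated span runs from the first to the last RefSeq gene (GRCh38.p14), without gene-free stretches above 1 Mb. Peaks overlapping by 1 bp or more were merged. Gene windows were 1000 bp, and starts came from the RefSeq promoter table. Genes were named for the 15 strongest regions of 3 libraries, all end genes of 2 libraries, clusters, up to 4 members of each list and the 3 strongest single-library regions of each library. Further list members and ID1's sequence were named after their values were seen. Chromosome, members and lists were chosen with earlier results of these data known. No test was run. Merging code recovered all 300 planted regions in simulated data, where the peaks of a region overlapped by design. Cluster and window code was checked only on a few planted intervals. Python 3.11.15, numpy 2.4.6, pandas 2.3.3, scipy 1.17.1 and matplotlib 3.10.9 were used.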

Additional observations from a re-analysis of the deposited data

How the results depend on the processing

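Of 53 alternative values of 6 results, 27 moved by less than the spread between libraries (for counts, by less than 1.5 times). Peaks with −log10 q of at least 3 gave chromosome 20 6.35% of peaks, 2.96 times the median density and a median rank by fold of 36.6. At −log10 q of at least 5 these were 7.88%, 3.74 and 26.6, with 60 shared regions and 7 end genes. With fold of at least 5 they were 5.01%, 2.23 and 44.7, with 43 and 6. Without dense clusters they were 4.79%, 2.32 and 34.6, with 55 and 7. Under the last 2 settings chromosome 17 had the higher density per Mb, while chromosome 20 stayed first per gene in all 4. The density ratio was 2.20 per protein-coding gene. The median rank was 60.8 by −log10 q. A window of 2000 bp put 25.9% of peaks at gene ends. End genes numbered 6 in 3 libraries and 43 in any library. Fewer peaks or libraries enter most of these counts; for the other values the cause was not tested.

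With each replicate left out in turn, the share ran from 5.92 to 6.15%, the ratio from 2.67 to 2.76, shared regions from 49 to 74, the median rank by fold from 40.6 to 42.5, the end share from 13.8 to 20.3% and end genes from 6 to 11. No paired analysis was possible because the controls have no peak list here and no test was run. Depth is unknown, so a peak missing from a list does not show absence of binding.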
